A study of Mus musculus with 6 samples.

Results

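The genes described here are 10 mouse genes by which dendritic cells recognise microbial products, chosen by name with earlier results of these data known. They are the formyl peptide receptors *Fpr1* and *Fpr2*, the lipopolysaccharide co-receptor *Cd14*, the Toll-like receptors *Tlr1*, *Tlr2*, *Tlr4*, *Tlr6*, *Tlr7* and *Tlr9*, and their adaptor *Myd88*. Of these 10 genes, 8 had a probe named for them, with 11 probes in all, and 7 genes with 9 probes were bright enough to be tested, of 8921 genes and 16071 probes tested on the array. *Fpr1* and *Tlr9* had no probe under their symbol in the annotation used, which covers only the probes of the authors' normalized table and not the whole array, and were not analysed here. The arrays measured RNA of GM-CSF-derived bone marrow dendritic cells (BMDCs) from 3 male C57BL/6 mice, whose age was not given in the sources used here. Marrow cells were grown for 10 days in GM-CSF at 20 ng/ml, a growth factor that drives marrow precursors towards myeloid cells. For the last 6 h they were kept in 5 ng/ml GM-CSF either alone (control, 3 arrays) or with 20 ng/ml IL-4, a type 2 cytokine (IL-4, 3 arrays). No gene was deleted and no microbial ligand was added in either group. The comparison asks how a short exposure to IL-4 changed the RNA of these receptors in cells that had met no pathogen product.

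Toll-like receptors bind conserved microbial molecules and, with the exception of TLR3, pass the signal through MyD88 to NF-κB and MAP kinases. TLR2 works as a pair with TLR1 or TLR6 at the cell surface and reads bacterial lipopeptides, TLR4 reads lipopolysaccharide handed over by CD14, and TLR7 and TLR9 read RNA and DNA inside endosomes. Formyl peptide receptors are G protein-coupled receptors for N-formylated peptides of bacteria and mitochondria, and are best known for guiding phagocytes towards them.

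Promoter sequences were looked at because the genes were compared under a cytokine that acts through STAT6, and because a myeloid factor, PU.1, is active in these cells. RefSeq promoters on GRCm38.p6, each of 300 bases from 250 before to 50 after the annotated start, were found for 7 of the 10 genes, with 9 promoters in all. Entries for *Cd14*, *Tlr4* and *Tlr7* were not used here. The promoters below belong to the receptor with the largest difference (*Fpr2*, chr17:17887574-17887873, plus strand), to a surface receptor that missed the threshold (*Tlr2*, chr3:83841559-83841858, minus strand) and to the adaptor (*Myd88*, chr9:119339969-119340268, minus strand). They are written 5′ to 3′ along the gene, and capitals mark letters that match the STAT motif TTCNNNGAA or the PU.1 motif GAGGAA on either strand.
Fpr2: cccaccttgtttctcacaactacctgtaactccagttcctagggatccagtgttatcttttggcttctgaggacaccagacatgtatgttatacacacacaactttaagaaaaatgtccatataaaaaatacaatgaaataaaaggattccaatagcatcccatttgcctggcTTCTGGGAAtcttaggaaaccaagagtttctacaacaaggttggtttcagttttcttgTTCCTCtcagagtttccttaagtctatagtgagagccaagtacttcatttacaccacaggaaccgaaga
Tlr2: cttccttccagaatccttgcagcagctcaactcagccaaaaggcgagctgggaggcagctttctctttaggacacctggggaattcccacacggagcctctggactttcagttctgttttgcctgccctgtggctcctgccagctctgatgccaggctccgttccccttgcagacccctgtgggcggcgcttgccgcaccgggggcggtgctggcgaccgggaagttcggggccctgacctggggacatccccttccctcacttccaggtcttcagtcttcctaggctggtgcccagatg
Myd88: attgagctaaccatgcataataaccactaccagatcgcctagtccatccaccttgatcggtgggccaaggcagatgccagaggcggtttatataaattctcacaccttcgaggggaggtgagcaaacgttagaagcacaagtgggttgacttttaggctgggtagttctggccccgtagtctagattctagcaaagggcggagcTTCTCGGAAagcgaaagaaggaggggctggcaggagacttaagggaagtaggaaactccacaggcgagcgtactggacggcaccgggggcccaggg
The *Fpr2* promoter held TTCNNNGAA 77 bases before the start and GAGGAA on the opposite strand 19 bases before it. The *Myd88* promoter held TTCNNNGAA 46 bases before the start, overlapping a match to the interferon response motif (GAAA, any 2 bases, GAAA) that began 40 bases before it, and the *Tlr2* promoter held none of these motifs. Over all 9 promoters, TTCNNNGAA matched in 4 (*Fpr2*, *Tlr1*, *Tlr6* and *Myd88*), against 8.3% of 32851 promoters in the table. GAGGAA matched in 3, against 28.3%. The interferon response motif matched in 2 (*Tlr6* and *Myd88*), against 3.44%, and the wider STAT6 form, with 4 bases between TTC and GAA, matched in 0, against 6.95%. Each was searched on both strands. These are matches of letters and not binding sites.

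Signals below are log2 bead signals after background correction and quantile normalization, so that a difference of 1 is a change of 2-fold, and they are compared between arrays and not between genes. *Fpr2*, which binds formylated peptides and a range of host peptides and lipids, had the largest difference of the 7 tested genes. Its signal (ILMN_1242457) was 11.23, 10.24 and 11.79 on control arrays 1, 2 and 3, and 9.63, 9.82 and 10.24 on IL-4 arrays 1, 2 and 3. Control 1 and 3 stood above every IL-4 array, and control 2 was level with IL-4 array 3, so the groups met at that point. The mean was 11.08 ± 0.78 (SD, n = 3) in control and 9.90 ± 0.31 (SD, n = 3) with IL-4, a log2 fold change of -1.19 or 2.28-fold lower signal. In limma without regard to the array numbers, the standard error was 0.35 and the adjusted p was 0.415, so *Fpr2* was not called. With the replicate number as a block, which compares each IL-4 array with the control of the same number, *Fpr2* fell, with a standard error of 0.22 and an adjusted p of 0.0123. The differences within numbers 1, 2 and 3 were -1.60, -0.41 and -1.55. Whether this probe also reads close relatives of *Fpr2* could not be told, and none of the 5 other formyl peptide receptor genes listed had a probe named in that annotation.

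In bulk RNA of this kind, fewer cells that express a gene and less RNA per cell cannot be told apart, and the arrays numbered 2 stood apart in markers of other cells. The summed signal of 14 tested neutrophil markers (of 16 listed) was 10723, 34716 and 9281 in controls 1, 2 and 3, and 8557, 35031 and 7590 with IL-4. It was therefore highest on both arrays numbered 2, where *Fpr2* had its smallest within-number difference, and it was lower with IL-4 in numbers 1 and 3 only. *Ngp*, a granule protein of neutrophil precursors, was 9.20, 11.67 and 7.96 in control and 9.26, 11.64 and 8.11 with IL-4. The part of these cells in the *Fpr2* result was not tested. Without both arrays numbered 2, the log2 fold change of *Fpr2* with the block was -1.57, and the adjusted p was 2.06e-04. With fewer arrays that fit leans more on the variance of all probes, so its adjusted p is not comparable with that of the full fit.

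Of the genes for recognition of lipopolysaccharide, *Cd14* fell with the block and *Tlr4* was not called. *Cd14*, whose product carries lipopolysaccharide to TLR4, was 10.59, 9.33 and 10.81 in controls 1, 2 and 3 (ILMN_2742075), and 9.86, 8.82 and 9.28 with IL-4. Each IL-4 array lay below the control of its number, but control 2 lay below IL-4 array 1, so the groups overlapped. The mean was 10.25 ± 0.80 (SD, n = 3) in control and 9.32 ± 0.52 (SD, n = 3) with IL-4, a log2 fold change of -0.93 or 1.90-fold lower signal. *Cd14* was not called without the block (standard error 0.39, adjusted p = 0.668), and it fell with the block (standard error 0.19, adjusted p = 0.0267). The largest within-number difference was -1.53 in number 3, and those in numbers 1 and 2 were -0.74 and -0.52. Without both arrays numbered 3, the blocked log2 fold change was -0.63 and the call was lost (adjusted p = 0.279).

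*Tlr4*, the signalling receptor for lipopolysaccharide, was read by a pair of probes. The brighter probe (ILMN_2684234) gave 7.96, 7.47 and 8.13 in control and 7.85, 7.02 and 7.82 with IL-4, and the groups overlapped. Its log2 fold change was -0.29, with a 95% confidence interval of -0.62 to 0.051 in the blocked fit, and it was not called in either fit (adjusted p = 0.935 without and 0.471 with the block). The other probe (ILMN_2752966) gave 7.36, 7.03 and 7.51 in control and 7.31, 6.52 and 7.19 with IL-4. Its log2 fold change was -0.30, so both *Tlr4* probes gave a similar value. In the fit without the block these values rested on IL-4 array 2, without which they were -0.013 and -0.053. The blocked interval leaves room for a decrease of 0.62 in log2 units, so an unaltered *Tlr4* is not shown. *Ly96*, which encodes the MD-2 protein bound to TLR4, had a log2 fold change of -0.13 (blocked 95% confidence interval -0.50 to 0.25, adjusted p = 0.827). Its differences within numbers 1, 2 and 3 were 0.053, 0.12 and -0.55, so its sign rested on number 3, without which it was 0.086.

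Of the lipopeptide receptors, *Tlr2* and *Tlr6* were tested, and neither was called in either fit at the main settings. *Tlr2*, the shared partner of both receptor pairs, was 10.11, 9.34 and 10.83 in controls 1, 2 and 3 (ILMN_2733733), and 9.41, 9.00 and 9.48 with IL-4. Control 2 again lay within the range of the IL-4 arrays, and the other controls lay above it. The mean was 10.09 ± 0.75 (SD, n = 3) against 9.30 ± 0.26 (SD, n = 3), a log2 fold change of -0.79 with a blocked 95% confidence interval of -1.21 to -0.38. The adjusted p was 0.665 without the block and 0.0547 with it, just past the threshold of 0.05. With the block kept, *Tlr2* was called with an offset of 50 (adjusted p = 0.0441), with an intensity trend (adjusted p = 0.0105) and without both arrays numbered 1 (-0.84, adjusted p = 0.00800). Without both arrays numbered 2 the blocked log2 fold change was -1.02 and *Tlr2* was called (adjusted p = 0.00906), and without those numbered 3 it was -0.52 and *Tlr2* was not called (adjusted p = 0.526). An adjusted p from a blocked fit without a numbered pair is not comparable with that of the full fit.

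*Tlr6*, the partner of TLR2 for diacylated lipopeptides, was 6.31, 5.95 and 6.55 in control (ILMN_3162337), and 5.72, 5.56 and 5.77 with IL-4. All 3 control arrays lay above all 3 IL-4 arrays. The mean was 6.27 ± 0.30 (SD, n = 3) against 5.68 ± 0.11 (SD, n = 3), a log2 fold change of -0.59 with a blocked 95% confidence interval of -0.93 to -0.25, and the adjusted p was 0.482 without and 0.0875 with the block. Without both arrays numbered 2 the blocked log2 fold change was -0.69 and *Tlr6* was called (adjusted p = 0.0386). Its other probe (ILMN_1254605) was above background on 2 control arrays and on 0 IL-4 arrays. With the IL-4 arrays set at the lowest signal of a detected probe (the floor), its control mean was 1.06-fold higher. This is not a firm bound, because control array 1 was itself not above background, and the authors' values gave a log2 fold change of -0.018. *Tlr1*, the partner of TLR2 for triacylated lipopeptides, was above background on control array 3 only (ILMN_1236908, signals of 4.47, 4.47 and 4.77 in control and of 4.27, 4.51 and 4.35 with IL-4). It was not tested, and no fold is given because the control mean of 4.57 lay below the floor of 4.69.

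*Tlr7*, the endosomal receptor for single-stranded RNA, was a dim probe (ILMN_1245354) with 6.43, 5.63 and 6.78 in controls 1, 2 and 3, and 5.75, 4.72 and 6.13 with IL-4. It was above background on 3 control and 2 IL-4 arrays, IL-4 array 2 being the exception, and the groups overlapped. Within numbers 1, 2 and 3 the differences were close to each other, at -0.68, -0.91 and -0.66. The mean was 6.28 ± 0.59 (SD, n = 3) against 5.53 ± 0.73 (SD, n = 3), a log2 fold change of -0.75 or 1.68-fold lower signal. *Tlr7* was not called without the block (standard error 0.39, adjusted p = 0.774), and it fell with the block (standard error 0.15, adjusted p = 0.0232). In the fit without the block the value was -0.34 without IL-4 array 2 and -0.50 without control array 3, and it was -1.07 without control array 2. The size depends on how background is handled. It was -0.30 with no background correction and -0.31 in the authors' normalized values, and *Tlr7* was called in neither with the block kept (adjusted p = 0.0908 and 0.178). The dim *Tlr6* probe moved likewise, from -0.59 to -0.25 and -0.30, while *Fpr2* stayed at -1.13 and -1.19. Without both arrays numbered 3, *Tlr7* was at -0.79 and was not called (adjusted p = 0.0706).

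*Myd88*, the adaptor that nearly all Toll-like receptors share, had the smallest difference. Its brighter probe (ILMN_2971767) gave 10.92, 10.78 and 10.91 in control and 10.66, 10.63 and 10.61 with IL-4. The groups did not overlap, and the arrays within each were close together (10.87 ± 0.081 and 10.63 ± 0.022, SD, n = 3 each). The log2 fold change was -0.24 with a blocked 95% confidence interval of -0.57 to 0.091, and it was not called (adjusted p = 0.855 without and 0.562 with the block). The other *Myd88* probe (ILMN_2774646) went the other way, with 8.15, 8.02 and 7.82 in control and 8.17, 8.16 and 7.94 with IL-4. It was higher with IL-4 in all 3 numbers, with a log2 fold change of 0.090 (blocked 95% confidence interval -0.24 to 0.42, adjusted p = 0.862), so the *Myd88* probes gave no common direction.

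**Figure D1:**
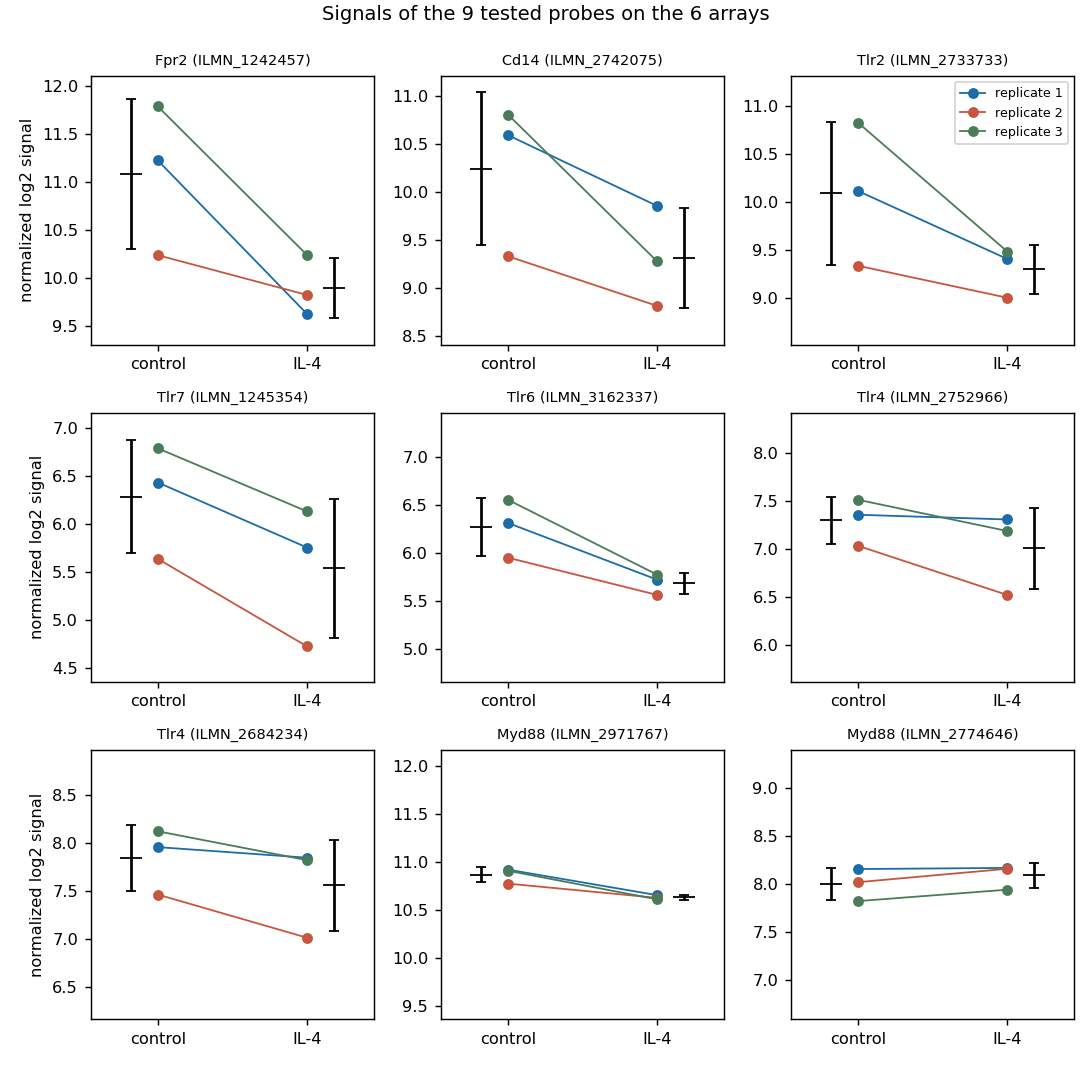
Normalized log2 signal of the 9 tested probes on the control and IL-4 arrays, with a panel for each probe, with lines joining arrays of the same number and the mean ± SD (n = 3) beside each group. Array 2 is the lowest control for *Fpr2*, *Cd14*, *Tlr2*, *Tlr6*, *Tlr7*, *Tlr4* and the brighter *Myd88* probe, and the *Fpr2* lines fall by 1.60, 0.41 and 1.55.

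By the probe that stands for each gene, all 7 tested genes were lower on average with IL-4, as were 52.8% of all tested genes. All 7 were also lower in each of the 3 numbers, against 20.0% of all tested genes. Because the genes were chosen with earlier results of these data known, the shares of all genes here and below are a description and not a test. The median log2 fold change over the 7 genes was -0.75, with a range of -1.19 to -0.24, and over all 8921 genes it was -0.015. The IL-4 arrays lay wholly below the control arrays for 2 of the 7 (*Tlr6* and *Myd88*), against 7.08% of all genes. The remaining 5 overlapped, in each case through control array 2, which was the lowest control for 7 of 7 genes. IL-4 array 2 was the lowest of its group for 5 of 7, *Fpr2* and *Myd88* being the exceptions. In both groups the array numbered 2 had the highest summed neutrophil markers and the highest summed mast cell and basophil markers. It also had the lowest summed macrophage and monocyte markers. The part of any of these cells in the receptor signals was not tested.

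Without the block, 0 of the 7 genes were called lower by limma, against 0% of all tested genes, and 4 were lower at an unadjusted p under 0.05, against 4.13% of all genes. In that fit 0.123% of the tested genes were called, and all of these were higher with IL-4. With the replicate block, 3 of 7 (*Fpr2*, *Cd14* and *Tlr7*) were called lower, against 1.01% of all genes, and 5 were lower at an unadjusted p under 0.05, against 7.91%. *Fpr2* alone was also past a log2 fold change of 1 in size, as were 0.235% of all genes in the downward direction.

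**Figure D2:**
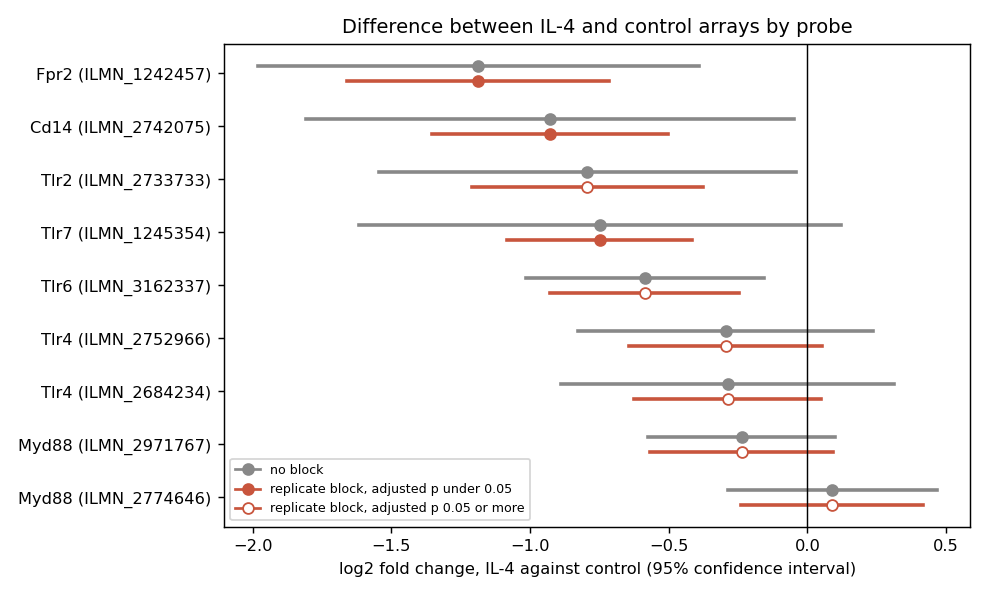
Log2 fold change of IL-4 against control for each of the 9 tested probes, with 95% confidence intervals from the fit without and with the replicate block. The *Fpr2* interval runs from -1.98 to -0.39 without the block and from -1.66 to -0.72 with it, and only the ILMN_2774646 probe of *Myd88* lies above 0.

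The call with the block also depended on the processing. It held for *Fpr2*, *Cd14* and *Tlr7* under another offset, a stricter detection filter and an intensity trend in the variance, and for none of the 7 with no background correction, in the authors' normalized values or with no detection filter. The *Fpr2* and *Cd14* fold changes moved little among these settings (-1.19 to -1.13 and -0.93 to -0.84), while their adjusted p ran up to 0.349 and 0.360.

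**Figure D3:**
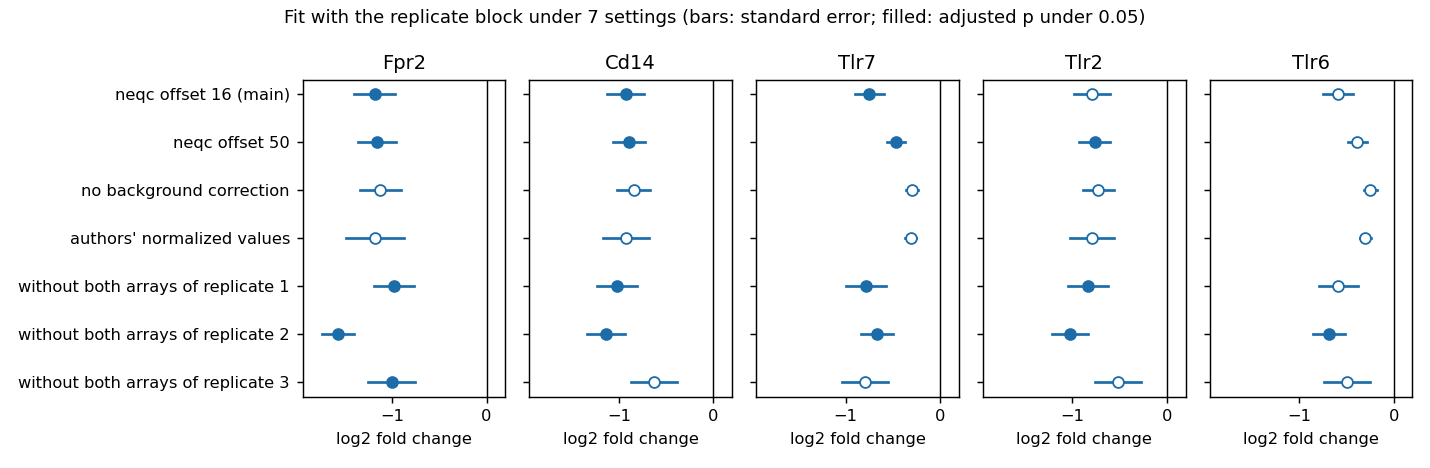
Log2 fold change with the replicate block kept for receptor genes including *Fpr2*, *Cd14*, *Tlr7* and *Tlr2* under 7 settings. Bars are standard errors, and points are filled where the adjusted p was under 0.05. Where all arrays were kept, *Fpr2* lay between -1.19 and -1.13 and *Cd14* between -0.93 and -0.84. *Tlr7* shrank from -0.75 to -0.30 with no background correction. Without both arrays numbered 1, 2 or 3, *Fpr2* was at -0.98, -1.57 and -1.01, and *Cd14* at -1.02, -1.13 and -0.63.

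Genes around these receptors were read from lists of 115 genes, of which 94 had a named probe and 89 were tested. With the block, 3 were called higher, against 1.65% of all genes, and 3 were called lower, against 1.01%. Of the 89, limma called 0 when the block was left out, and 15 had an unadjusted p under 0.05, against 8.38% of all genes in either direction. Their median log2 fold change was -0.064, and 56 of 89 were below 0. The other Toll-like and related receptors had 0 of 3 called by limma in either fit. With the block the unadjusted p was under 0.05 for all 3 (1 higher and 2 lower), against 15.1% of all genes. Without it this held for 2, against 8.38%. *Tlr13*, a receptor for bacterial ribosomal RNA in mice, was 8.09, 7.99 and 8.06 in control and 7.50, 7.10 and 7.62 with IL-4, a log2 fold change of -0.64 that missed the threshold (adjusted p = 0.0644 with the block). *Cd180*, a relative of TLR4 best known in B cells, was at -0.57 (adjusted p = 0.107). *Tlr8*, an endosomal receptor related to TLR7, was above background on 1 control and 2 IL-4 arrays. Its signals were 4.36, 4.22 and 4.76 in control and 5.21, 4.26 and 5.40 with IL-4. The log2 fold change of *Tlr8* was 0.51, and it was not called (adjusted p = 0.214 with the block). Without both arrays numbered 2 the blocked value was 0.75 and *Tlr8* was called (adjusted p = 0.0277). In the authors' values the log2 fold change was 0.083. The size is uncertain, because the control mean of 4.44 lay below the floor of every control array, the lowest being 4.67.

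Of the 6 calls, 3 were C-type lectins, surface receptors for microbial sugars and glycolipids. Of 13 tested sensors outside the Toll-like family, 2 fell and 1 rose with the block, and the median was -0.21. *Clec4e*, which encodes the mycobacterial glycolipid receptor Mincle, was 9.36, 7.72 and 9.56 in control and 8.13, 6.92 and 7.97 with IL-4, and fell with a log2 fold change of -1.21 (blocked standard error 0.18, adjusted p = 0.00361). *Clec4d*, its neighbour and partner, was 10.91, 10.21 and 11.01 in control and 9.96, 9.41 and 9.95 with IL-4. It fell by 0.94 on the log2 scale (adjusted p = 0.00662), with no overlap between the groups. *Clec7a*, which encodes the fungal β-glucan receptor dectin-1, was 9.50, 8.86 and 9.66 in control and 10.72, 9.88 and 10.75 with IL-4. It rose by 1.11 on the log2 scale (adjusted p = 0.00216), and again the groups did not overlap. Without the block the adjusted p of these lectin genes was 0.630, 0.325 and 0.303. With the block kept, all 3 were still called with no background correction and without any numbered pair of arrays, and none was called in the authors' normalized values or with no detection filter (adjusted p = 0.109 to 0.208). The other C-type lectin tested in the list, *Clec4n*, which encodes dectin-2, was not called (log2 fold change -0.20, adjusted p = 0.643 with the block).

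Downstream and around the receptors, 0 of 19 adaptor and kinase genes, 0 of 12 inhibitors, 0 of 5 co-receptors and 0 of 19 ligand, G protein and effector genes of formyl peptide receptor signalling were called with the block. The unadjusted p was under 0.05 for 3, 4, 1 and 2 of these, against 15.1% of all genes in that fit. Without the block these lists also had 0 calls in limma, with 1, 3, 0 and 1 at an unadjusted p under 0.05, against 8.38% of all genes. *Irak3*, an inhibitor of MyD88 signalling, was at -0.69 (adjusted p = 0.0647). Of 8 transcription factors, *Fos*, a part of the AP-1 factor, was called lower, and *Atf3*, a factor that restrains Toll-like receptor responses, was called higher. *Fos* was 10.03, 8.35 and 10.04 in control and 9.23, 7.75 and 8.51 with IL-4, and fell by 0.97 on the log2 scale (adjusted p = 0.0167). *Atf3* was 7.88, 7.21 and 7.80 in control and 8.84, 7.77 and 8.71 with IL-4, and rose by 0.81 on the log2 scale (adjusted p = 0.0170). Of 10 genes for chaperones, traffic and endosomal processing, *Ctss*, a lysosomal protease that cleaves endosomal Toll-like receptors and invariant chain, rose by 0.76 on the log2 scale (adjusted p = 0.0388). Its signal was 9.01, 8.34 and 8.68 in control and 9.88, 8.70 and 9.72 with IL-4. Without both arrays numbered 2, the blocked fit called 11 of the 89 genes (4 higher and 7 lower), and without those numbered 3 it called 4 (1 higher and 3 lower), which were *Irak3* (log2 fold change -0.88, adjusted p = 0.0304) and the C-type lectin genes above. In that fit *Fos* (-0.70, adjusted p = 0.172), *Atf3* (0.76, adjusted p = 0.0968) and *Ctss* (0.62, adjusted p = 0.303) were not called. With the block kept, all 3 were also lost in the authors' values (adjusted p = 0.231, 0.161 and 0.220) and with no detection filter, and *Fos* and *Ctss* with no background correction (adjusted p = 0.0768 and 0.0683). Without the block their adjusted p was 0.754, 0.574 and 0.656.

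**Figure D4:**
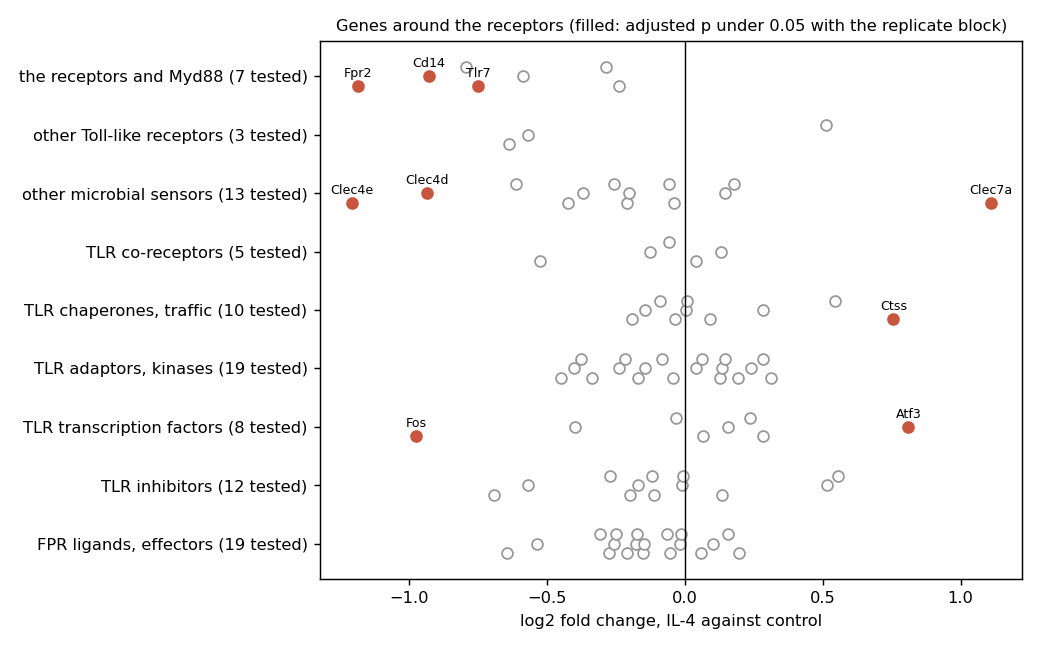
Log2 fold change of IL-4 against control for every tested gene of the receptor set and of 8 lists around it, with a point for each gene, filled where the adjusted p with the replicate block was under 0.05. By their brightest tested probe, the 7 receptor and adaptor genes lie between -1.19 and -0.24. The other *Myd88* probe, not drawn here, was at 0.090. The other lists spread on both sides of 0, that of the other Toll-like receptors only through the dim *Tlr8* (0.51), with *Tlr13* at -0.64 and *Cd180* at -0.57.

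The label of the cells was checked against markers, which also gives the setting for the receptors. The dendritic cell markers *Itgax* and *Zbtb46* had signals of 6.33 to 7.33 and 6.17 to 6.50 and were above background on all 6 arrays. The summed signal of 10 tested dendritic cell markers of 13 listed was 37851 to 39896 in control and 38375 to 41310 with IL-4. Of the rest, *Clec9a* was too dim to be tested, and *Flt3* and *Xcr1* had no named probe. The median of the list within numbers 1, 2 and 3 was 0.0075, 0.11 and 0.071. *Irf4* and *Batf3*, transcription factors of that list, rose with the block by 1.08 and 0.91 on the log2 scale (adjusted p = 0.0101 and 0.0104), and were not called without it (adjusted p = 0.175 and 0.141). With the block kept, neither was called in the authors' values (adjusted p = 0.195 and 0.124) or with no detection filter, and *Irf4* was not called with no background correction (adjusted p = 0.0514). The arrays also carried macrophage genes, with *Adgre1*, a widely used surface marker of macrophages, at 9.37 to 10.89. The sum over 11 tested macrophage and monocyte markers of 15 listed was 21549, 16139 and 23720 in control and 22753, 13623 and 24904 with IL-4. In limma, 0 were called in either fit, and 2 higher and 2 lower had an unadjusted p under 0.05 with the block, against 15.1% of all genes. The median of the list within numbers 1, 2 and 3 was -0.17, -0.11 and -0.24, and 8 of 11 had a log2 fold change below 0. The sum was lowest on both arrays numbered 2, as were most of the receptors, and the part of these cells in the receptor results was not tested.

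Among neutrophil markers, *Mmp9*, a secreted gelatinase, fell by 0.95 on the log2 scale (adjusted p = 0.00894 with and 0.162 without the block). With the block kept, that call held with no background correction (adjusted p = 0.0259). It was lost in the authors' values (adjusted p = 0.128) and with no detection filter (adjusted p = 0.201). The median of the neutrophil list within numbers 1, 2 and 3 was -0.13, -0.058 and -0.090. The sum over 4 tested mast cell and basophil markers of 8 listed was 932, 6371 and 415 in control and 774, 5543 and 401 with IL-4, with *Cpa3*, a mast cell protease gene, at 11.78 and 11.65 on the arrays numbered 2. The B cell markers *Ms4a1* and *Cd79b* and the plasmacytoid dendritic cell marker *Siglech* were too dim to be tested. Of the 9 markers listed for these cells, 2 were tested. Their summed signal was 314, 326 and 367 in control and 433, 362 and 540 with IL-4. In limma neither was called in either fit. By unadjusted p both passed 0.05 in each fit, 1 of them rising and 1 falling. Of 7 T and NK cell markers only *Cd3g* was tested, at 4.45 to 4.97. Eosinophil *Prg2* was at 9.32 to 10.95 and *Epx* at 4.38 to 5.96.

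Over the 6 arrays, the genes whose signals ran most alike to those of the called receptors were found by Pearson correlation among 8920 other genes. This is a description over 6 arrays that share their 3 numbers and conditions. For *Fpr2* they were *Fbxw17* (r = 0.998), *Jpt1* (0.991) and *Osbpl3* (0.988), of which *Osbpl3* was called lower with the block (log2 fold change -0.99, adjusted p = 0.0101). That call was lost without both arrays numbered 3 (-0.82, adjusted p = 0.0527) and with no background correction (-0.50, adjusted p = 0.0828). It was also lost in the authors' values (-0.61, adjusted p = 0.186) and with no detection filter (adjusted p = 0.249). For *Cd14* they were *Snx18* (r = 0.994), *Fos* (0.990) and *Pbrm1* (0.986), and for *Tlr7* they were *Galt* (r = 0.995), *Lgals8* (0.995) and *Naip5* (0.993). No gene stood among the leading 3 of more than 1 receptor.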

How the data were processed

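The data were 6 Illumina MouseWG-6 bead arrays, 3 control and 3 IL-4, with 14934 to 17185 of 45281 probes detected and median bead signals of 83.8 to 121. The number of arrays limits the precision. For every probe, the authors deposited a bead signal intensity, neither background-corrected nor normalized, and a detection p-value against negative control beads. The authors also deposited log2 values for 19293 probes, transformed and normalized in lumi and tested in limma (versions not given in the sources used here), which served as an alternative.

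Background correction by way of the detection p-values, and quantile normalization, were done with neqc (limma 3.58.1, R 4.3.3, offset 16). The 16071 probes detected (p under 0.05) on 3 or more arrays were fitted with lmFit and eBayes, two-sided, with Benjamini-Hochberg adjustment over all of them. A gene (13600 probes had 1 symbol, 8921 genes) was represented by its tested probe with the highest mean, and called at an adjusted p under 0.05. Summed marker signals are sums of linear normalized signals. Bounds used the lowest signal among detected probes of each array. Symbols came from the platform annotation, promoters from RefSeq (GRCm38.p6), and figures were drawn in matplotlib 3.10.9 (Python 3.11.15).

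Residual degrees of freedom were 4 without and 2 with the block. Leaving out a numbered pair lowers them further, so those blocked fits rest mostly on the variance that eBayes shares over all probes. Without both arrays numbered 1, the blocked standard errors were 0.212 for *Fpr2* and 0.209 for the brighter *Myd88* probe. In the full blocked fit they were 0.217 and 0.151. Adjusted p values and counts of calls from fits without a pair are therefore not comparable with those of the full fit. The labels number the arrays of each condition but do not state that a number is a mouse. The block rests on a check of deviations from the group means, which correlated at 0.292, 0.549 and 0.624 where the number was shared and at -0.549 to 0.0959 where it was not. For each probe the deviations of a group sum to 0, so these values are not independent, and the negative ones follow in part from the positive. The check used the same arrays as the fit, so it is no separate evidence that the numbers pair them. Separate cultures are not stated beyond the 3 mice. On simulated data over the 16071 probes, the fit without block recovered 21.8% of log2 changes of 1 and 87.8% of log2 changes of 2, and the blocked fit 37.6% and 82.8%. The simulation took its replicate effects and noise from the blocked fit, so pairing by number was built in. It therefore cannot tell whether the numbers pair the real arrays or which fit is the better one for them.

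Named genes were all members, up to 4 called genes of each pathway list, defining cell markers and those that separated arrays numbered 2, and the 3 genes most correlated with each called receptor. *Tlr13*, *Cd180*, *Tlr8*, *Ly96*, *Irak3*, *Irf4*, *Batf3* and *Mmp9* were named after their values were seen. The members and lists were chosen with earlier results of these data known. Alternatives were the block, an offset of 50, no background correction, the authors' values, no or a stricter filter (detection p under 0.01), an intensity trend, any probe, and leaving out arrays or pairs.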

Additional observations from a re-analysis of the deposited data

How the results depend on the processing

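Of the 7 tested receptor genes, the count called lower without the block was 0 and became 3 with the replicate block, and it stayed at 0 under each other alternative without the block. With the block it was 3, and it went to 0 with no background correction, to 0 in the authors' normalized values and to 0 with no detection filter. It was 4 with an offset of 50, with an intensity trend and without both arrays of replicate 1, *Tlr2* being added each time. It was 1 (*Fpr2*) in the authors' values with an intensity trend, a setting chosen after seeing the data, 5 without both arrays of replicate 2 and 1 (*Fpr2*) without both arrays of replicate 3. Over the whole array, the 18 probes called without the block became 365 with the replicate block, 0 in the authors' normalized values (1330 at an unadjusted p under 0.05) and 1 with no detection filter. Leaving out single arrays gave 1 to 67, and leaving out both arrays of replicate 1, 2 or 3 gave 1, 64 and 1. The 365 probes of the blocked fit became 241 with no background correction, 0 in the authors' values, 0 with no detection filter, 220 in the authors' values with an intensity trend, and 842 without both arrays of replicate 2. The lowest and highest counts on leaving out a pair were 266 and 842. Those fits have fewer residual degrees of freedom, so their counts are not comparable with 365. Among the fold changes recomputed, those of the 9 tested receptor probes kept their sign in every alternative, and that of *Ly96*, which was not called, went from -0.13 to 0.086 with the block without both arrays of replicate 3. The causes of these shifts were not tested. With no filter more probes share the adjustment, and the blocked standard errors changed too, from 0.22 to 0.27 for *Fpr2* and from 0.15 to 0.080 for *Tlr7*. The dim probes of *Tlr1*, *Tlr6* and *Tlr7* are limited by signal over background.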
